A study of Mus musculus with 8 samples.

Results

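Acute phase proteins are plasma proteins whose synthesis by hepatocytes rises or falls within hours of inflammation or injury. The group described here was given as a list of 10 genes, Saa1, Saa2, Saa3, Saa4, Lcn2, Orm1, Orm2, Hp, Hpx and Apcs, and all 10 were found by symbol among the 13703 rows of the deposited expression table. RNA was sequenced from whole liver of mice with loxP sites flanking Bicd2, which encodes an adaptor between the motor dynein and its cargo. The 4 Alb-Cre libraries came from livers that also carried a Cre recombinase driven by the albumin promoter, which is active in hepatocytes. The 4 Alb-WT libraries came from livers without this Cre. Bicd2 was not measured by cell type. Both groups had received the same autoimmune hepatitis (AIH) regimen, with 2.5 mg of S-100, a liver cytosol preparation in complete Freund's adjuvant, injected into the peritoneum weekly for 3 weeks, and liver was collected 2 weeks after dosing ended. Untreated livers were not analysed here, so each value below describes a difference of genotype within immunized mice. The sources used here do not give age, sex, strain background or whether each library came from its own animal, so p-values measure the spread between these libraries, which may be technical.

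As background, interleukin-6 (IL-6) acts on hepatocytes through its receptor, gp130, JAK kinases and the transcription factor STAT3, and interleukin-1 (IL-1) acts through NF-kB and C/EBP factors. Genes of the IL-1 type need IL-1, usually together with IL-6, for full induction, and are represented here by Saa1, Saa2, Saa3, Lcn2, Orm1 and Orm2. Genes of the IL-6 type respond mainly to IL-6, and are represented by Hp, Hpx and Apcs. Saa4 is made at a steady level and belongs to neither type. The division is a simplification, since most of these genes respond to both cytokines and to glucocorticoids.

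The libraries rested on 32793770 to 39157210 fragments. Bicd2 lay between 0.509 and 0.732 FPKM (fragments scaled by gene length and library total) in the Alb-Cre libraries and between 2.46 and 3.11 FPKM in the Alb-WT libraries, lower in all 4 libraries labelled Alb-Cre. Hepatocyte markers, 10 of 10 in the table, summed to 41150 to 41832 FPKM in Alb-WT, 42864 to 44365 FPKM in Alb-Cre replicates 1 to 3 and 31960 FPKM in Alb-Cre replicate 4. Most of this sum was Alb, at 23744 to 24419 FPKM in Alb-WT. Alb, Ttr and Apoa1 are also among the negative acute phase proteins described below. With 8 libraries 2 of the 10 markers were called lower and 0 higher (limma), beside 23.3% and 8.48% of all tested rows. Without replicate 4, 5 were called lower and 4 higher, beside 46.1% and 15.2%. Alb-Cre replicate 4 stood apart from its group. Its correlation with Alb-Cre replicates 1 to 3, across the tested genes on the log2 scale, was 0.958 to 0.960, against 0.995 to 0.996 among replicates 1 to 3, and it correlated at 0.974 to 0.977 with the Alb-WT libraries (genes are not independent replicates). For this reason replicate 4 is given apart from replicates 1 to 3 below, and the limma test of each member is given with and without it. Replicate 4 was thus set apart by values of these same data. Standard errors and p-values without it leave out the library that differed most, and no exact permutation p is given for that comparison. In whole-liver RNA fewer cells of a type and less RNA per cell cannot be told apart.

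The acute phase genes moved in different directions in Alb-Cre replicates 1 to 3, and were high together in replicate 4. In replicates 1 to 3 Saa1, Saa2 and Saa4 were above every Alb-WT library, Lcn2, Orm2, Hp, Hpx and Apcs were below every Alb-WT library, and Saa3 and Orm1 overlapped with Alb-WT. In replicate 4 all 10 genes were above the other Alb-Cre libraries, and 9 of them, all but Hpx, were above every Alb-WT library. Replicate 4 is a single library, and the share of all tested rows with these patterns is not given here. This and like counts for replicate 4 below therefore do not set the listed genes apart from other genes. With all 8 libraries, 3 members were called higher in Alb-Cre (limma, Benjamini-Hochberg adjusted p under 0.05 over 11077 tested rows), 0 were called lower and 7 were not called. At an unadjusted limma p under 0.05, 2 were lower (Orm2 and Hpx), and voom with adjustment called 2 lower. Of all tested rows 8.48% were called higher, 23.3% lower and 31.8% in either direction. The groups did not overlap for 3 members, against 30.6% of all tested rows. Without replicate 4, 3 members were called higher, 5 lower and 2 not at all, where 15.2% of all tested rows were called higher, 46.1% lower and 61.3% in either direction. In that comparison 8 members did not overlap between groups, against 60.6% of all rows. Calls were thus common among all genes, and the counts alone do not set the members apart. The members' median log2 difference was 0.24 with all libraries and -0.20 without replicate 4, beside -0.13 and -0.16 over all tested rows.

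**Figure D1:**
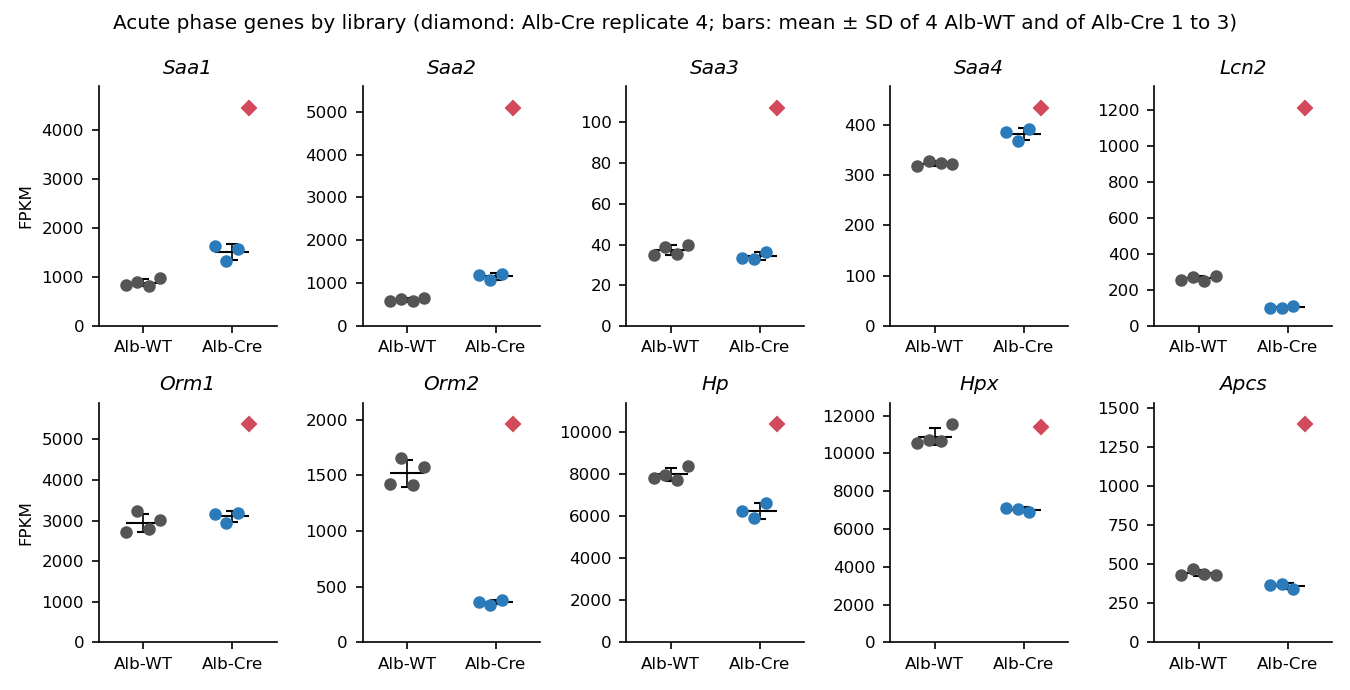
FPKM of the 10 acute phase genes in each library, 1 panel per gene with its own linear axis from 0. Grey points are Alb-WT, blue points Alb-Cre replicates 1 to 3, the red diamond Alb-Cre replicate 4, and black bars the mean ± SD of the 4 Alb-WT and of the 3 blue points. Saa1 and Saa2 are above Alb-WT in every Alb-Cre library, whereas Lcn2 and Orm2 are below it in replicates 1 to 3 and above it in replicate 4.

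The serum amyloid A genes encode small apolipoproteins of high-density lipoprotein. Saa1 and Saa2 encode the forms that circulate after an acute phase response. Saa1 was at 1628, 1322, 1564 and 4447 FPKM in Alb-Cre replicates 1 to 4 and at 830, 905, 824 and 975 FPKM in Alb-WT replicates 1 to 4. Every Alb-Cre library was above every Alb-WT library, and replicate 4 was 2.96-fold above the mean of the other Alb-Cre libraries. On the log2(FPKM + 1) scale Saa1 rose by 1.16 (SE 0.34, limma adjusted p = 0.0318, exact two-sided permutation p = 0.0286, the smallest that 70 assignments allow). The rise was 0.77 without replicate 4 (SE 0.08, limma adjusted p = 1.75e-05), which corresponds to 1.70-fold in FPKM. The call with 8 libraries was lost on leaving out Alb-Cre replicate 1 or 3 or any single Alb-WT library (limma adjusted p = 0.0549 to 0.0797), and with quantile normalization (0.0647).

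Saa2 was at 1198, 1069, 1210 and 5093 FPKM in Alb-Cre replicates 1 to 4 and at 577, 624, 570 and 657 FPKM in Alb-WT replicates 1 to 4. Its groups were apart in the same way, with the library of highest level again Alb-Cre replicate 4. Saa2 rose by 1.47 on the log2 scale (SE 0.45, limma adjusted p = 0.0363, exact permutation p = 0.0286), and by 0.93 without replicate 4 (SE 0.06, limma adjusted p = 6.69e-07), or 1.91-fold in FPKM. Without Alb-Cre replicate 1 or 3 or any single Alb-WT library the call was lost (limma adjusted p = 0.0569 to 0.0869), as it was with quantile normalization (0.0620). The ratio of Saa2 to Saa1 differed too. It was 0.674 to 0.695 in Alb-WT, 0.735 to 0.809 in Alb-Cre replicates 1 to 3 and 1.15 for replicate 4 (exact permutation p = 0.0286 over 4 and 4 libraries). Saa2 was therefore below Saa1 in 7 libraries and above it in Alb-Cre replicate 4.

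Saa1 and Saa2 are neighbouring genes with closely similar promoters, shown here because their RNA levels moved together. RefSeq promoter sequences of build GRCm38.p6 were at hand for 8 of the 10 members by symbol, and the 250 bases before the start of transcription are given 5′ to 3′. Those of Saa1 (chr7:46742981-46743230, minus strand) and Saa2 (chr7:46751583-46751832, plus strand) were identical at 94.8% of the 251 columns of their alignment. Capitals mark matches to TTGCNNAA on either strand, the core recognized by C/EBP factors.
Saa1: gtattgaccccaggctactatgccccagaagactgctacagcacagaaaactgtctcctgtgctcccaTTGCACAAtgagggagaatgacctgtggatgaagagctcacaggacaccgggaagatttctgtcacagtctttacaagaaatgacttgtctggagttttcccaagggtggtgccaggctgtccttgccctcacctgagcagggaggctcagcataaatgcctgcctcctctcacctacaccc
Saa2: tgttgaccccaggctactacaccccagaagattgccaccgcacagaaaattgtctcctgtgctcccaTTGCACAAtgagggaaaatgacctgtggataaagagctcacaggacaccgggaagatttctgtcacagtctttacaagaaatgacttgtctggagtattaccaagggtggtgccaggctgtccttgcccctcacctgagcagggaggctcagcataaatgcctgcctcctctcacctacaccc
The C/EBP match began 182 bases before the start in Saa1 and 183 bases before it in Saa2, with the same letters in both.

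Saa3 is expressed in macrophages and other cells outside the hepatocyte as well as in liver, and its RNA was the least abundant of the group. Its level was 33.5, 33.1, 36.4 and 107 FPKM in Alb-Cre replicates 1 to 4 and 34.7, 38.7, 35.5 and 39.7 FPKM in Alb-WT replicates 1 to 4. Replicates 1 to 3 overlapped with Alb-WT, and replicate 4 alone was high, at 2.89-fold the Alb-WT mean. The log2 difference was 0.29 (SE 0.34, limma adjusted p = 0.517), and -0.11 without replicate 4 (SE 0.06, limma adjusted p = 0.140). Saa3 was not called in either comparison, but without replicate 4 it was called lower after rescaling all libraries to the same FPKM sum (-0.23, limma adjusted p = 0.00493) and its sign turned with median-of-ratios scaling (0.11, adjusted p = 0.166). Its promoter (chr7:46715677-46715926, minus strand) is shown beside those of Saa1 and Saa2 because the gene did not follow them in replicates 1 to 3.
Saa3: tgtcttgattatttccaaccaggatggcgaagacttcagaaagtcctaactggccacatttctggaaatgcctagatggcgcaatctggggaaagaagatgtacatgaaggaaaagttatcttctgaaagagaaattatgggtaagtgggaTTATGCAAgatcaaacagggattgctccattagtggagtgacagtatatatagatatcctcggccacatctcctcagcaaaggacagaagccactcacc
The capitals mark the C/EBP core on the opposite strand, beginning 99 bases before the start.

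Saa4, the constitutive member, differed least between Alb-Cre replicate 4 and the other Alb-Cre libraries. It was at 385, 368, 392 and 434 FPKM in Alb-Cre replicates 1 to 4 and at 319, 329, 323 and 321 FPKM in Alb-WT replicates 1 to 4. All Alb-Cre libraries were above all Alb-WT libraries, and replicate 4 was only 1.14-fold above the mean of the others. Saa4 rose by 0.29 on the log2 scale (SE 0.07, limma adjusted p = 0.0196, exact permutation p = 0.0286), and by 0.24 without replicate 4 (SE 0.04, limma adjusted p = 0.000475). The call with 8 libraries was lost without Alb-Cre replicate 3 or Alb-WT replicate 1, 3 or 4 (limma adjusted p = 0.0509 to 0.0603), with all libraries set to one FPKM sum (0.113) and with quantile normalization (0.162).

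Lcn2 encodes lipocalin 2, which binds bacterial siderophores and is made by hepatocytes during inflammation and stored in neutrophil granules. Lcn2 was at 102, 102, 112 and 1213 FPKM in Alb-Cre replicates 1 to 4 and at 253, 273, 252 and 278 FPKM in Alb-WT replicates 1 to 4. Replicates 1 to 3 were below every Alb-WT library and replicate 4 was above all, so that the Alb-WT libraries stood between the libraries of the other genotype. The difference between replicate 4 and the mean of the other Alb-Cre libraries was 11.5-fold, the widest among the 10 members. With 8 libraries Lcn2 was not called (log2 difference -0.44, SE 0.72, limma adjusted p = 0.660, exact permutation p = 0.657). Without replicate 4 it fell by 1.32 on the log2 scale (SE 0.05, limma adjusted p = 1.86e-08), and the Alb-WT mean was 2.50-fold that of the 3 Alb-Cre libraries. Its promoter (chr2:32387740-32387989, minus strand) is shown because Lcn2 moved in replicates 1 to 3 in the direction opposite to Saa1 and Saa2, which are classed with it by cytokine response.
Lcn2: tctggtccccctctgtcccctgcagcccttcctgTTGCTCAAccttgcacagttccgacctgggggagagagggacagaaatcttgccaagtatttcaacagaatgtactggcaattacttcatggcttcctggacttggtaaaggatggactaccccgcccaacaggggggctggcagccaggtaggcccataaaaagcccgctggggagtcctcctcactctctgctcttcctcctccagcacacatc
The C/EBP core in capitals began 216 bases before the start.

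The summed neutrophil and macrophage markers were below Alb-WT in replicates 1 to 3, as Lcn2 was. In replicate 4 these sums were also below Alb-WT, while Lcn2 was above it. Of 14 neutrophil genes listed 8 were in the table, and 7 of 7 tested fell, with and without replicate 4 (limma). Of all tested rows 23.3% were called lower with 8 libraries and 46.1% without replicate 4. The summed level of the 8 neutrophil genes was 280 to 343 FPKM in Alb-WT, 11.1 to 11.7 FPKM in Alb-Cre replicates 1 to 3 and 105 FPKM in replicate 4. Elane, neutrophil elastase, was at 9.38 to 13.8 FPKM in Alb-WT, 0.114 to 0.248 FPKM in Alb-Cre replicates 1 to 3 and 2.80 FPKM in replicate 4. In replicate 4 Lcn2 was 4.59-fold the Alb-WT mean, while none of the 7 tested neutrophil markers was above every Alb-WT library. Camp, Ltf, Ly6g, Mmp8, Mpo and Ngp were not analysed here. The deposited table holds no 0 for any gene, so the absence of a marker from a library cannot be read from it. Among the 7 tested, Mmp9 averaged 0.306 FPKM in Alb-Cre and 1.34 FPKM in Alb-WT. It thus passed the filter of 0.5 FPKM only through Alb-WT, the group where it was high. All 12 macrophage markers fell, with and without replicate 4 (limma), beside 23.3% and 46.1% of all tested rows. Their sums were 1256 to 1294 FPKM in Alb-WT, 364 to 371 FPKM in Alb-Cre replicates 1 to 3 and 1205 FPKM in replicate 4. In replicate 4, 2 of the 12 were above every Alb-WT library. These were Marco (125 FPKM against 83.1 to 90.4 FPKM in Alb-WT) and Cd68 (35.6 FPKM against 28.4 to 32.3 FPKM). Cholangiocyte markers, 5 of 8 in the table, summed to 79.0 to 92.2 FPKM in Alb-WT, 36.2 to 41.0 FPKM in Alb-Cre replicates 1 to 3 and 61.8 FPKM in replicate 4. Stellate cell and fibroblast markers, 10 of 10 in the table, summed to 65.1 to 67.6, 37.1 to 39.9 and 55.9 FPKM in the same order. Dcn, at 35.2 to 37.8 FPKM in Alb-WT and 23.6 FPKM in replicate 4, made up much of this sum. In replicate 4, 5 of the 10 markers were above every Alb-WT library. With 8 libraries 4 of the 10 fell and 1 rose, which was Acta2 (log2 difference 0.63, limma adjusted p = 0.00790). The summed markers of B and plasma cells, 6 of 7 in the table, were highest in replicate 4, at 56.8 FPKM against 14.7 to 16.3 FPKM in Alb-WT. Ighm alone was at 41.5 FPKM there. The sum for T and NK cells, 6 of 10 in the table, was also highest in replicate 4. It was 11.3 FPKM there, 6.43 to 8.81 FPKM in Alb-WT and 1.30 to 1.86 FPKM in replicates 1 to 3. Nkg7 was at 6.06 FPKM in replicate 4, while Cd4, at 1.13 FPKM, lay within its Alb-WT range of 1.01 to 1.36 FPKM. With 8 libraries 0 of the 4 tested genes of either list were called (limma). At an unadjusted p under 0.05, 2 T and NK genes were lower. Monocyte markers, 5 of 6 in the table, summed to 31.5 FPKM in replicate 4, 52.1 to 58.2 FPKM in Alb-WT and 5.17 to 6.34 FPKM in replicates 1 to 3. Those of sinusoidal endothelium, 8 of 8 in the table, summed to 37.2 FPKM in replicate 4, 50.9 to 54.2 FPKM in Alb-WT and 49.6 to 51.2 FPKM in replicates 1 to 3. Replicate 4 was the lowest library for 3 of the 8 (Kdr, Oit3 and Fcgr2b) and lay between others for 5. With 8 libraries 3 others fell (Stab2, Lyve1 and Cdh5, limma) and 0 rose, beside 23.3% of all tested rows that fell. Saa3 in replicates 1 to 3 was at 0.924 of its Alb-WT mean beside these lower macrophage and stellate sums. The part of these cells in the acute phase values was not tested.

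**Figure D2:**
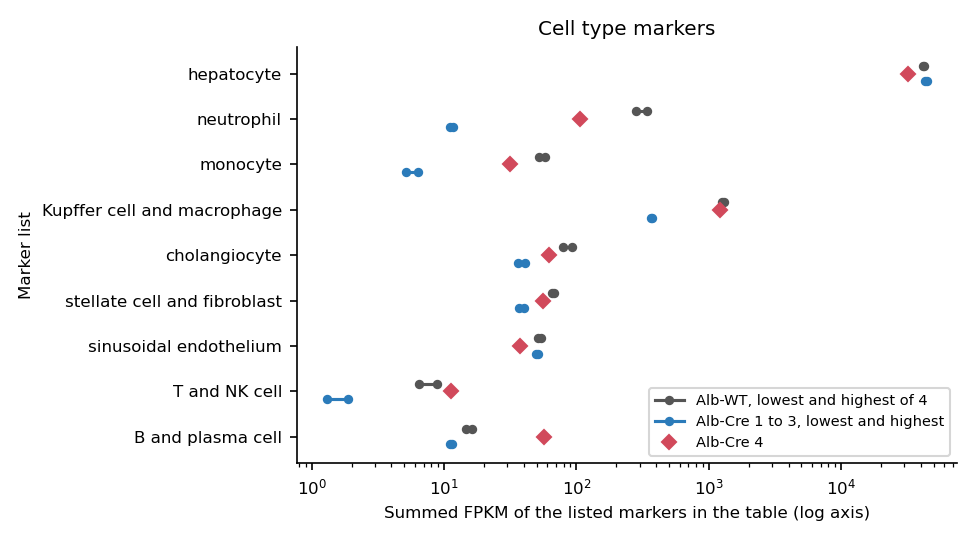
Summed FPKM of cell type markers (log axis), for the marker genes found in the table. Grey joined points are the lowest and highest Alb-WT library, blue joined points the same for Alb-Cre replicates 1 to 3, and the red diamond Alb-Cre replicate 4. Neutrophil markers are at 280 to 343 FPKM in Alb-WT, 11.1 to 11.7 FPKM in Alb-Cre replicates 1 to 3 and 105 FPKM in replicate 4.

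Orm1 and Orm2 encode orosomucoid, an abundant glycoprotein that binds small lipophilic molecules and dampens inflammation. Both lie in one cluster with Orm3 and they differed in their response. Orm1 was at 3169, 2939, 3198 and 5371 FPKM in Alb-Cre replicates 1 to 4 and at 2730, 3226, 2781 and 3027 FPKM in Alb-WT replicates 1 to 4. Apart from replicate 4, which was 1.83-fold the Alb-WT mean, the groups overlapped. Orm1 was not called with all libraries (log2 difference 0.28, SE 0.19, limma adjusted p = 0.274) or without replicate 4 (0.08, SE 0.06, limma adjusted p = 0.289). The last value turned negative with all libraries set to one FPKM sum (-0.04), with quantile normalization (-0.13) and after removal of a gene length trend (-0.05), and was called higher with median-of-ratios scaling (0.31, limma adjusted p = 0.00336).

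Orm2 was at 367, 340, 377 and 1959 FPKM in Alb-Cre replicates 1 to 4 and at 1418, 1660, 1418 and 1579 FPKM in Alb-WT replicates 1 to 4. Replicates 1 to 3 were far below Alb-WT and replicate 4 was above every Alb-WT library. With 8 libraries the log2 difference was -1.46 (SE 0.51, limma adjusted p = 0.0550, exact permutation p = 0.143), which did not pass the threshold. It did pass with quantile normalization (adjusted p = 0.0397), after removal of a gene length trend (0.0484) and with voom on the recovered fragments (0.0455). Without replicate 4 Orm2 fell by 2.07 on the log2 scale (SE 0.06, limma adjusted p = 2.90e-09), and the Alb-WT mean was 4.20-fold that of the 3 Alb-Cre libraries. This was the largest difference among the 10 members in that comparison.

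Expressed as a ratio within each library, which does not depend on scaling between libraries, Orm1 over Orm2 was 1.92 to 1.96 in Alb-WT, 8.48 to 8.65 in Alb-Cre replicates 1 to 3 and 2.74 for replicate 4. The 4 Alb-Cre values were all above the 4 Alb-WT values (exact permutation p = 0.0286). Orm1 and Orm2 transcripts have 6.95% of their 100-base windows in common (47 of 676), and fragments from those stretches cannot be assigned by sequence. No 100-base window was common to the coding transcripts of Saa1, Saa2, Saa3 and Saa4 and the transcripts of their paralogues. Orm3, a further gene of the cluster that is no member and was picked after its values were seen, was at 4.85, 3.40, 4.85 and 52.5 FPKM in Alb-Cre replicates 1 to 4 and at 50.6 to 64.1 FPKM in Alb-WT. It was like Orm2 in that replicate 4 was near Alb-WT and the other Alb-Cre libraries far below. It fell by 2.55 on the log2 scale (SE 0.69, limma adjusted p = 0.0253), a call lost without any single library other than Alb-Cre replicate 4 (0.0579 to 0.0715), and without replicate 4 it fell by 3.39. The promoters of Orm2 (chr4:63362199-63362448, plus strand) and Orm3 (chr4:63355908-63356157, plus strand), shown because both genes were low in the same libraries, were identical at 85.9% of 255 aligned columns.
Orm2: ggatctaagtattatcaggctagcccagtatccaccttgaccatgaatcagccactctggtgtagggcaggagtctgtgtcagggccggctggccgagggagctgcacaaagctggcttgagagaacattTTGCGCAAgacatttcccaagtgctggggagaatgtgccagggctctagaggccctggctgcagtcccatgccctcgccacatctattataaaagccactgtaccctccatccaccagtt
Orm3: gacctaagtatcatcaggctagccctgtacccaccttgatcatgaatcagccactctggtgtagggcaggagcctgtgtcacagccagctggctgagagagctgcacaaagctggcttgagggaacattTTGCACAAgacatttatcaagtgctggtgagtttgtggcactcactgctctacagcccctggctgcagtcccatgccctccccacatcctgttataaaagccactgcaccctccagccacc
In both, capitals mark the C/EBP core, 120 bases before the start in Orm2 and 121 bases before it in Orm3.

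**Figure D3:**
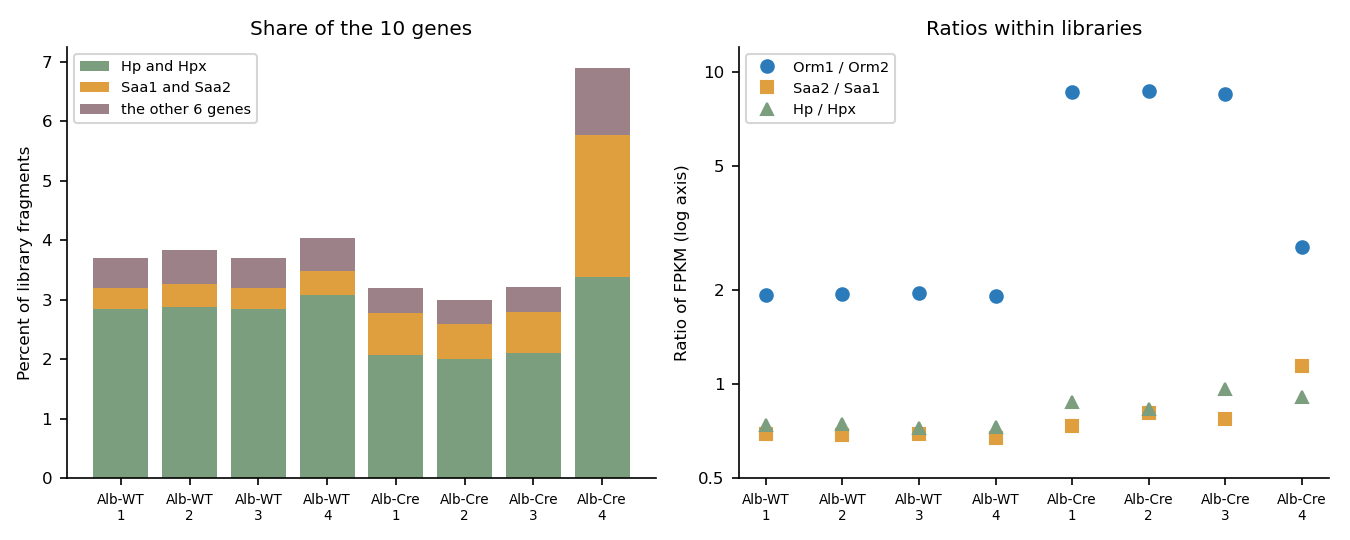
Left, percent of each library's fragments that fell to the 10 genes, with Hp and Hpx, Saa1 and Saa2, and the other 6 stacked. Right, ratios of FPKM within each library on a log axis. The Orm1 to Orm2 ratio is 1.92 to 1.96 in Alb-WT, 8.48 to 8.65 in Alb-Cre replicates 1 to 3 and 2.74 for replicate 4.

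Hp and Hpx encode haptoglobin and hemopexin, which capture free hemoglobin and heme in plasma. They were the most abundant members. Hp was at 6246, 5889, 6636 and 10364 FPKM in Alb-Cre replicates 1 to 4 and at 7822, 7963, 7740 and 8398 FPKM in Alb-WT replicates 1 to 4. Replicates 1 to 3 were below all Alb-WT libraries and replicate 4 above them. Hp was not called with 8 libraries (log2 difference -0.17, SE 0.18, limma adjusted p = 0.488) and fell by 0.35 without replicate 4 (SE 0.05, limma adjusted p = 0.000177). That last call was lost with median-of-ratios scaling (-0.13, limma adjusted p = 0.0666).

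Hpx was at 7129, 7060, 6892 and 11421 FPKM in Alb-Cre replicates 1 to 4 and at 10575, 10705, 10673 and 11539 FPKM in Alb-WT replicates 1 to 4. It was the only member for which replicate 4 lay within the Alb-WT range. The log2 difference with 8 libraries was -0.45 (SE 0.18, limma adjusted p = 0.0765), and the threshold was passed with quantile normalization (0.0397), after removal of a gene length trend (0.0476) and with voom (0.0449). Without replicate 4 Hpx fell by 0.63 (SE 0.04, limma adjusted p = 8.46e-07), and the Alb-WT mean was 1.55-fold the Alb-Cre mean. The Hp to Hpx ratio was 0.725 to 0.744 in Alb-WT, 0.834 to 0.963 in Alb-Cre replicates 1 to 3 and 0.907 for replicate 4, higher in every Alb-Cre library (exact permutation p = 0.0286). Hp and Hpx thus changed unequally, with Hpx the lower of the pair relative to Alb-WT in all 4 Alb-Cre libraries.

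Apcs encodes serum amyloid P component, the pentraxin that serves as a major acute phase protein in mice. It was at 370, 375, 341 and 1395 FPKM in Alb-Cre replicates 1 to 4 and at 429, 469, 437 and 430 FPKM in Alb-WT replicates 1 to 4. As for Hp, replicates 1 to 3 were below Alb-WT and replicate 4 above it, by 3.16-fold against the Alb-WT mean. Apcs was not called with 8 libraries (log2 difference 0.20, SE 0.41, limma adjusted p = 0.720). Without replicate 4 it fell by 0.29 (SE 0.05, limma adjusted p = 0.000624), a difference that shrank to -0.06 with median-of-ratios scaling (limma adjusted p = 0.375).

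The Apcs promoter (chr1:172895055-172895304, minus strand) is shown because, of the 8 member promoters, it alone held the letters TTCNNNGAA of a STAT element and the letters CTGGGAA of the IL-6 response element, searched on both strands.
Apcs: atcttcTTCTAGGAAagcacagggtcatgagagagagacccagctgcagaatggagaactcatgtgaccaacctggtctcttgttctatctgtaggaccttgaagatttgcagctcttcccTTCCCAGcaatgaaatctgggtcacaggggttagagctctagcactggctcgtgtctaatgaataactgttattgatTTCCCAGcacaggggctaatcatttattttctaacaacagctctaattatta
Capitals mark the STAT match, beginning 244 bases before the start, and 2 matches to CTGGGAA on the opposite strand, beginning 129 and 52 bases before it, none of which overlap. TTGCNNAA was found in 7 of the 8 member promoters, all but Apcs. Among all 32851 promoters of the RefSeq table the same 250-base window held TTGCNNAA in 9.56%, TTCNNNGAA in 7.02% and CTGGGAA in 9.10%, and the NF-kB consensus in 3.90%. The NF-kB consensus was not matched in these windows of the 8 members. A match describes letters and is no evidence of binding.

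By cytokine class, the IL-6 type genes had one direction in Alb-Cre replicates 1 to 3 and the IL-1 type genes did not. Without replicate 4, all 3 genes of the IL-6 type fell, whereas of the 6 IL-1 type genes 2 rose (Saa1 and Saa2), 2 fell (Lcn2 and Orm2) and 2 were not called (limma), beside 46.1% of all tested rows called lower and 15.2% higher. With median-of-ratios scaling 1 of the 3 IL-6 type genes, Hpx, kept its call, and 3 IL-1 type genes were called higher and 2 lower. Without replicate 4 that scaling called 3124 of all 11077 rows higher and 2981 lower. Relative to the Alb-WT mean, the median log2 difference of the IL-1 type was -0.02, -0.08 and 0.05 in Alb-Cre replicates 1 to 3, with members from -2.15 to 1.00, and 1.85 in replicate 4, with members from 0.37 to 3.07. That of the IL-6 type was -0.35, -0.44 and -0.37 in replicates 1 to 3 and 0.38 for replicate 4, where members ranged from 0.07 to 1.66. The Alb-WT libraries stayed within -0.09 to 0.08 for the IL-1 type and -0.04 to 0.07 for the IL-6 type. Over all tested genes the median was -0.18 to -0.15 in Alb-Cre replicates 1 to 3 and 0.01 for replicate 4. With all 8 libraries the median of the members' fitted differences was 0.29 for the IL-1 type and -0.17 for the IL-6 type, with no test made of either, and without replicate 4 the first became -0.02 and the second -0.35. In replicate 4 the difference from Alb-WT exceeded that of 99.9% of tested genes for Saa1, Saa2 and Lcn2, of 99.6% for Saa3, of 98.2% for Orm1, of 89.1% for Orm2, of 99.7% for Apcs, of 89.5% for Hp and of 60.4% for Hpx.

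**Figure D4:**
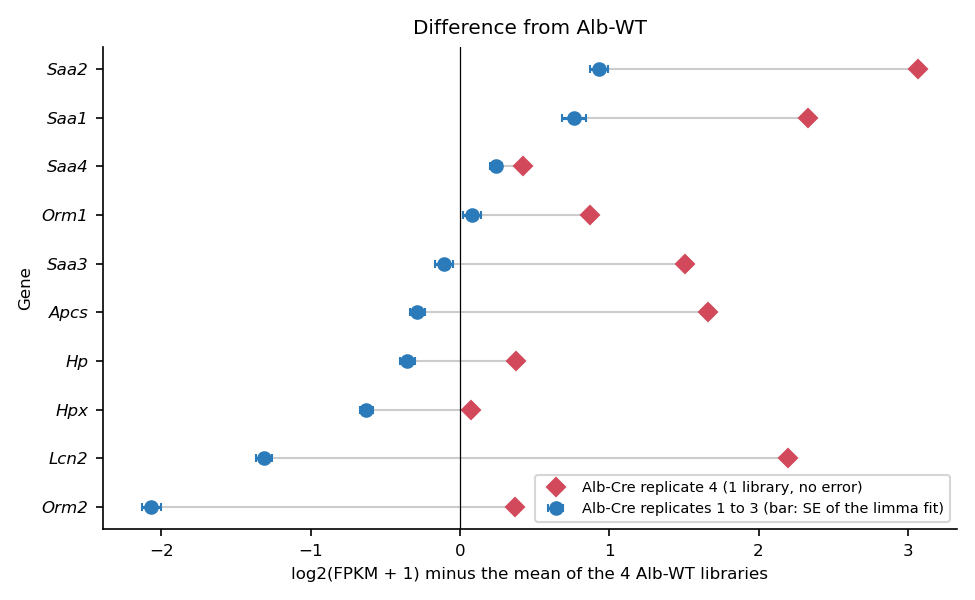
Difference of each acute phase gene from the mean of the 4 Alb-WT libraries on the log2(FPKM + 1) scale, ordered by the value in Alb-Cre replicates 1 to 3 (blue, with the SE of the fit). Red diamonds are Alb-Cre replicate 4, a single library. Replicates 1 to 3 range from -2.07 for Orm2 to 0.93 for Saa2, and replicate 4 is at or above 0.07 for every gene.

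The order of the levels changed with the group. In FPKM, a level per length, it ran Hpx, Hp, Orm1, Orm2, Saa1, Saa2, Apcs, Saa4, Lcn2 and Saa3 in Alb-WT, where no neighbours overlapped. In Alb-Cre replicates 1 to 3 Saa1 and Saa2 moved above Orm2, and Saa4, Apcs and Orm2 had overlapping values. In replicate 4 Saa2 stood above Saa1, and Lcn2 above Saa4. These levels depend on the gene length used. The lengths behind the FPKM values, recovered from their steps, equalled the merged exons of GENCODE M21, which for Saa1 is 2478 bases against 609 bases of its coding transcript, as 1 of its 2 annotated transcripts retains an intron. The corresponding lengths were 2518 and 606 bases for Saa2, 2606 and 555 bases for Saa3 and 2623 and 915 bases for Lcn2, and 1606 and 1345 bases for Hp, while those of Orm1, Orm2, Hpx, Apcs and Saa4 were equal. If every fragment came from the coding transcript, the Alb-WT level would be 3595 FPKM for Saa1 and 2522 FPKM for Saa2, and in Alb-Cre replicate 4 Saa2 would be at 21161 FPKM, above Hpx at 11421 FPKM. Differences between libraries are not affected by the length.

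The 10 genes took 3.70% to 4.03% of all fragments in Alb-WT, 3.00% to 3.22% in Alb-Cre replicates 1 to 3 and 6.90% for replicate 4. Hp and Hpx made up 2.84% to 3.08% of fragments in Alb-WT, 2.00% to 2.10% in Alb-Cre replicates 1 to 3 and 3.38% for replicate 4. Saa1 and Saa2 took 0.348% to 0.407% of fragments in Alb-WT, 0.597% to 0.705% in Alb-Cre replicates 1 to 3 and 2.38% for replicate 4. In replicates 1 to 3 the added SAA fragments were thus fewer than those lost by Hp and Hpx, and the group as a whole took a smaller part of the library. The whole share did not separate the genotypes with replicate 4 included (exact permutation p = 1).

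Further acute phase genes outside the list were described by the same split. Of 15 others of the IL-6 type none rose with 8 libraries (limma, 2 at an unadjusted p under 0.05), 1 fell (Hamp, which encodes the iron hormone hepcidin, log2 difference -0.37, limma adjusted p = 0.0466) and 14 were not called. Of all tested rows 8.48% rose and 23.3% fell with 8 libraries. Without replicate 4, 4 of the 15 rose and 11 fell, beside 15.2% and 46.1% of all rows. Those that fell included the fibrinogen chain genes Fga (-0.39), Fgb (-0.39) and Fgg (-0.20), the copper carrier gene Cp (-0.63) and the lipopolysaccharide carrier gene Lbp (-0.72). Those that rose were Serpina3n (0.27), Lrg1 (0.30), Itih4 (0.15) and Serpina1a (0.21). In replicate 4, 13 of the 15 were above every Alb-WT library, a count without a share over all tested rows beside it. The median of the list was -0.09 with 8 libraries and -0.39 without replicate 4. With median-of-ratios scaling Hamp was not called (adjusted p = 0.361), 2 of the list rose with 8 libraries, and without replicate 4 the count that fell was 9, with Fgg at 0.03. That scaling called 1723 of all 11077 rows higher with 8 libraries and 2981 lower without replicate 4. The rise of Itih4 was lost with one FPKM sum for all libraries (0.02), and that of Serpina1a there and with quantile normalization (0.09 and 0.02). All 7 tested genes of the other IL-1 or NF-kB type, 2 of them also on the list before, fell without replicate 4, beside 46.1% of all rows. With replicate 4 none of them was called (limma, 3 lower and 0 higher at an unadjusted p under 0.05). Among them Cxcl1, a neutrophil-attracting chemokine, was at 77.4 to 80.6 FPKM in Alb-WT, 22.6 to 26.1 FPKM in Alb-Cre replicates 1 to 3 and 179 FPKM in replicate 4, and so had the pattern of Lcn2.

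Negative acute phase proteins, which decline in plasma during inflammation, did not form a mirror image in replicates 1 to 3. With 8 libraries none of 10 rose (limma, 0 also at an unadjusted p under 0.05), Fetub (-0.80) and F12 (-0.24) fell and 8 were not called. Of all tested rows 8.48% rose and 23.3% fell. Without replicate 4, 2 of the 10 rose (Alb, 0.16, and Ttr, 0.30), 6 fell and 2 were not called, beside 15.2% and 46.1% of all rows that rose and fell. Ttr, the thyroxine carrier transthyretin, was at 4541 to 5147 FPKM in Alb-WT, 5665 to 6272 FPKM in Alb-Cre replicates 1 to 3 and 3000 FPKM in replicate 4. Alb was at 23744 to 24419 FPKM in Alb-WT, 26354 to 27571 FPKM in Alb-Cre replicates 1 to 3 and 19621 FPKM in replicate 4. Replicate 4 was the lowest of the 8 libraries for 6 of the 10 genes (Alb, Ttr, Rbp4, Apoa1, Serpina6 and Gc). It was the highest for Trf, at 7569 FPKM against at most 7521 FPKM in Alb-WT, and lay between replicates 1 to 3 and Alb-WT for Ahsg, Fetub and F12. The direction of this list depended on scaling. Without replicate 4 median-of-ratios scaling gave 4 higher and 1 lower, where it called 3124 of all 11077 rows higher and 2981 lower. Quantile normalization gave 0 higher and 7 lower, with Ttr at -0.10 and Alb not called, where 3012 of all rows were higher and 2638 lower. F12 lost its call with median-of-ratios scaling (limma adjusted p = 0.498 with 8 libraries).

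Of the signalling genes, the receptor chain gene Il6ra was lower in Alb-Cre, at 3.76 to 4.73 FPKM in replicates 1 to 3 and 6.41 FPKM in replicate 4 against 7.31 to 8.10 FPKM in Alb-WT (log2 difference -0.61, SE 0.12, limma adjusted p = 0.00948). In the IL-6 and STAT3 list 4 of 12 tested genes fell, the others being Jak2 (-0.55), Il22ra1 (-0.54) and Jak1 (-0.28), none rose (limma, 0 at an unadjusted p under 0.05) and 8 were not called, where 23.3% of all tested rows fell. Without replicate 4, 11 fell and 1 rose, where 46.1% of all rows fell and 15.2% rose. The count that fell was then 7 after removal of a gene length trend and 8 with median-of-ratios scaling. Those scalings called 2860 and 2981 of all 11077 rows lower. Il6ra was at -0.72 without replicate 4 and without rescaling (SE 0.07, limma adjusted p = 1.49e-05). Jak1 lost its call with 8 libraries under median-of-ratios scaling (adjusted p = 0.105) and after removal of a gene length trend (0.161). The ligand genes Il6, Osm, Lif, Il11 and Il22 were not analysed here. Socs3, a feedback inhibitor induced by STAT3 and picked after its values were seen, was at 11.1 to 12.6 FPKM in Alb-WT, 3.32 to 3.48 FPKM in Alb-Cre replicates 1 to 3 and 35.1 FPKM in replicate 4. It fell by 1.55 without replicate 4 (SE 0.06, limma adjusted p = 1.06e-08) and was not called with it (adjusted p = 0.347).

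In the IL-1, TNF and NF-kB list 6 of 19 tested genes fell, none rose (limma, 1 at an unadjusted p under 0.05) and 13 were not called, beside the 23.3% of all tested rows that fell. Those of smallest p were the NF-kB inhibitor genes Nfkbia (-0.68) and Tnfaip3 (-0.99), the cytokine gene Il1b (-0.86) and the subunit gene Nfkb1 (-0.43, log2 differences). Il1b was at 4.57 to 5.96 FPKM in Alb-WT, 1.82 to 2.41 FPKM in Alb-Cre replicates 1 to 3 and 3.43 FPKM in replicate 4. The receptor gene Il1r1, picked after its values were seen, went the other way, with 14.0 to 15.1 FPKM in Alb-WT, 17.9 to 19.0 FPKM in Alb-Cre replicates 1 to 3 and 54.1 FPKM in replicate 4 (0.34 without replicate 4, SE 0.05, limma adjusted p = 0.000231). It was not called with 8 libraries (adjusted p = 0.105), except with median-of-ratios scaling (0.0379) and after removal of a gene length trend (0.0448). Il1r1 thus had the order of Saa1 and Saa2, low in Alb-WT, intermediate in replicates 1 to 3 and high in replicate 4. Without replicate 4, 15 of the 19 fell and 2 rose, beside 46.1% and 15.2% of all rows, and 12 fell with median-of-ratios scaling or quantile normalization. Those scalings called 2981 and 2638 of all 11077 rows lower.

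**Figure D5:**
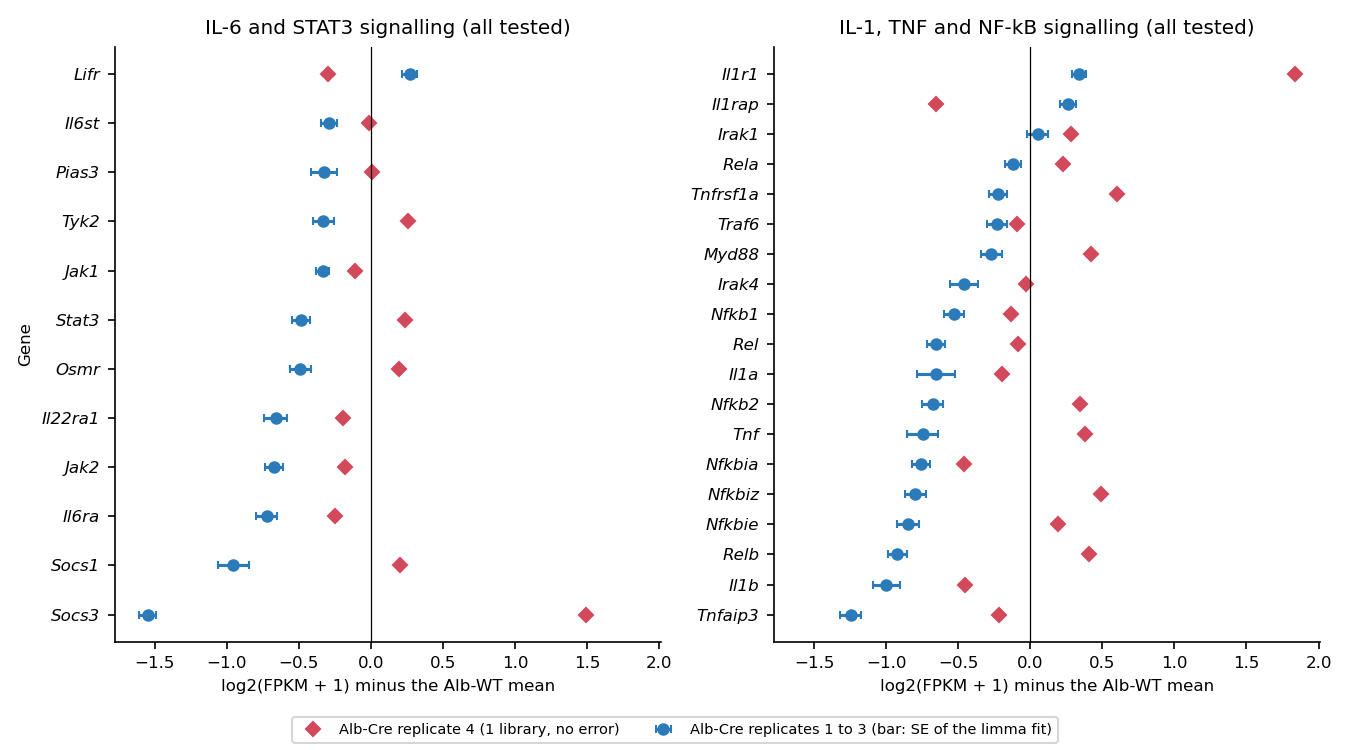
All tested genes of the IL-6 and STAT3 list (left) and of the IL-1, TNF and NF-kB list (right), as differences from the Alb-WT mean on the log2(FPKM + 1) scale. Blue points with the SE of the fit are Alb-Cre replicates 1 to 3 and red diamonds Alb-Cre replicate 4, a single library. Socs3 is at -1.55 in replicates 1 to 3 and above 0 in replicate 4, and Il1r1 is above 0 in both.

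Among 11 transcription factor genes of acute phase promoters 3 rose, 3 fell and 5 were not called (limma). Of all tested rows 8.48% rose and 23.3% fell. Without replicate 4, 3 of the 11 rose, 5 fell and 3 were not called, beside 15.2% and 46.1% of all rows that rose and fell. With 8 libraries Onecut1 (1.07), Foxa2 (0.42) and Cebpa (0.43) rose. Onecut1 was near the floor in Alb-WT, at 0.0853 to 0.281 FPKM. It was at 1.63 to 1.73 FPKM in Alb-Cre replicates 1 to 3 and 0.789 FPKM in replicate 4. It thus passed the filter of 0.5 FPKM only through the group where it was high, and its rise is no independent support. Maz (-0.34), Cebpd (-0.59) and the glucocorticoid receptor gene Nr3c1 (-0.23) fell. Of these, Cebpa and Nr3c1 are beyond the 4 of smallest p. Cebpd, which encodes the C/EBP factor induced in inflammation, was at 3.79 to 4.55 FPKM in Alb-WT, 1.88 to 2.35 FPKM in Alb-Cre replicates 1 to 3 and 3.86 FPKM in replicate 4. Cebpb was not called (-0.16, limma adjusted p = 0.165). Several of these calls depended on scaling, since Cebpa was lost with quantile normalization (0.0602), Foxa2 with one FPKM sum for all libraries (0.0632), Maz with median-of-ratios scaling (0.0640) and Nr3c1 with 3 of the 4 other scalings (0.222 to 0.692).

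On the list of receptors and partners of the acute phase proteins 7 of 10 tested genes fell, where 23.3% of all tested rows fell. None rose (limma, 0 at an unadjusted p under 0.05). Cd163, the macrophage receptor for haptoglobin bound to hemoglobin, was at 10.42 to 11.95 FPKM in Alb-WT, 3.93 to 4.68 FPKM in Alb-Cre replicates 1 to 3 and 8.17 FPKM in replicate 4 (log2 difference -0.99, SE 0.17, limma adjusted p = 0.00533, and -1.18 without replicate 4). Without replicate 4, 9 of the 10 fell, where 46.1% of all tested rows fell. Tlr4 (-0.66), Scarb1, which takes up high-density lipoprotein (-0.41), and Hbp1 (-0.34) were the others of smallest p. Tlr4 averaged 0.467 FPKM in Alb-Cre and 1.30 FPKM in Alb-WT, so it passed the filter of 0.5 FPKM only through Alb-WT. Hbp1 stands on this list by its symbol, but it encodes a transcription factor and no receptor or partner of an acute phase protein. The counts of 7 and 9 genes that fell include Hbp1. Its call was lost with quantile normalization (0.0701) and after removal of a gene length trend (0.0807), the latter also for Scarb1 (0.0634). Lrp1, the hemopexin receptor, was not called with 8 libraries (-0.33, limma adjusted p = 0.0692) and fell by 0.47 without replicate 4 (SE 0.05, limma adjusted p = 1.59e-05). Macrophage markers were lower in the same libraries, as given above, and their part in Cd163 was not tested.

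The genes most like each member, by Pearson's r of log2(FPKM + 1) over the 8 libraries among 9300 other genes, differed between members. Saa1 and Saa2 had the same 3 nearest genes, Copa, Tkfc and Slc25a3 (r = 0.991 to 0.995). Those of Saa3 were Litaf, Shb and Cldn14, and those of Saa4 Txn2, Kdelr2 and Rexo2. Lcn2 was nearest to the fibrinogen gene Fgb (r = 0.996), followed by Rnf10 and Prg4, and Apcs to Steap4 (r = 0.994), followed by Txlna and Ly6d. Orm2 was nearest to Rps6ka3, Atp1b3 and Csf2rb (r = 0.997 to 0.998), Orm1 to Atf4, Eif6 and Sod2, Hp to Tfe3, Arfip2 and Ube2j2, and Hpx to Atxn2l, C1qa and Itgb2. Between members r was 0.997 for Saa1 and Saa2, 0.992 for Orm2 and Hpx, 0.979 for Saa3 and Apcs, 0.971 for Lcn2 and Hp, and 0.284 for Orm1 and Orm2. These values describe 8 libraries that fall into Alb-WT, Alb-Cre replicates 1 to 3 and Alb-Cre replicate 4, and all genes share those libraries.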

How the data were processed

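Groups and replicate numbers came from the sample titles. The deposited table gives FPKM, which the authors computed from fragments, gene length and library total. HISAT2 2.0.5 is listed in the submitters' processing notes, beside mouse and human builds without a role. Which counting tool, annotation and strand setting served is not stated there. The table holds no 0, so genes without a fragment in a library are not analysed here. Whole fragment numbers were recovered for 100% of rows from the FPKM steps (relative tolerance 1e-08, or the annotated length), and 94.5% of rows with an annotated symbol had the merged exon length of GENCODE M21.

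log2(FPKM + 1) was fitted for the 11077 rows averaging 0.5 FPKM or more over 8 libraries with limma 3.58.1 in R 4.3.3 (genotype only, intensity trend), which understates changes of low genes. Benjamini-Hochberg adjustment covered all tested rows. Single values had exact two-sided permutation tests over 70 assignments. The fit and the recovery were tested on simulated data. Python 3.11.15, scipy 1.17.1 and matplotlib 3.10.9 served for the rest. Alternatives were pseudocount, filter, scaling, gene length trend, intensity trend, replicate block, voom and leaving out each library.

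Members and lists were chosen with earlier results of these data known. From each other list, up to 4 called genes of smallest p were named, and for each member the 3 nearest genes averaging 1 FPKM or more, without unnamed gene models and receptor segments. Genes said to have been picked after their values were seen, and examples in comparisons without Alb-Cre replicate 4, lie outside this rule.
The list of receptors and partners holds Hbp1, a transcription factor, by error.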

Additional observations from a re-analysis of the deposited data

Results flagged for a closer look

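Within the Alb-Cre libraries, replicate 4 lay far above the others for 9 members, in that its gap to the next library took more of the group's whole range than Dixon's 95% critical value for 4 samples. That share was 0.902 for Saa1, 0.965 for Saa2, 0.957 for Saa3 and 0.991 for Lcn2. It was 0.894 for Orm1, 0.977 for Orm2, 0.833 for Hp, 0.948 for Hpx and 0.968 for Apcs. Saa4 did not exceed the critical value in either group. In the Alb-WT libraries Hpx was flagged through replicate 4 (0.865), at 11539 FPKM against 10575 to 10705 FPKM in the others. Chance flags about 1 in 20 groups, and the members share their libraries, so the flags in Alb-Cre are not independent of each other.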

How the results depend on the processing

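The count of genes called depended on scaling. Of 11077 rows 939 were called higher and 2582 lower. The higher count was 623 with one FPKM sum for all libraries, 1723 with median-of-ratios scaling and 1522 with quantile normalization. The lower count was 1658, 1478 and 1503 with median-of-ratios scaling, quantile normalization and removal of a gene length trend, and 981 among genes averaging 5 FPKM or more. The share of calls that were lower was 73.3%, against 82.9% with one FPKM sum, 49.0% with median-of-ratios scaling, 49.3% with quantile normalization and 51.8% after removal of the length trend. The median difference of all rows was -0.13, -0.19, -0.01, 0.02 and -0.01 in the same order. Leaving out single libraries gave 546 to 1679 higher and 1205 to 5112 lower, with both highest values without Alb-Cre replicate 4.

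Among the 10 members, 0 were higher with quantile normalization, and 2 were lower (Orm2 and Hpx) there, after removal of the length trend and with voom. Leaving out single libraries gave 0 to 3 higher and 0 to 5 lower. Without Alb-Cre replicate 4, 3 were lower with median-of-ratios scaling, beside 2981 of all 11077 rows. With all libraries but that one, the sign turned for Saa3 (-0.11, up to 0.45 without another library) and Apcs (-0.29, up to 0.39). In that comparison the sign also turned for Saa3 with median-of-ratios scaling (0.11) and for Orm1 with one FPKM sum (-0.0436), quantile normalization (-0.13) and removal of the length trend (-0.0457). These scalings without replicate 4 were chosen after seeing the data. The cause was not tested.

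A replicate block gave 613 higher and 1631 lower, and Saa4 lost its call (adjusted p = 0.0617). Same-numbered libraries correlated at -0.10 to 0.01 in their deviations from the group means, so the numbers were not taken as a pairing.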
